A study of Mus musculus with 12 samples.

Results

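Livers of adult mice were compared with livers of newborn mice for 5-hydroxymethylcytosine (5hmC) over genes. The libraries were chosen by their titles: 2 libraries of W8 liver (8 weeks of age) and 2 of P1 liver (the title gives postnatal day 1, the age label neonatal day 1-2), 4 of the 12 libraries in the series. All came from whole, snap-frozen livers of the C57BL6/j strain, with no genotype change or treatment named. Also used were 1 library of E14 liver (embryonic day 14), 2 of P1 heart and 2 of W8 heart from the same strain, and 2 of cultured EB5 embryonic stem cells, which served only to estimate the spread. The 1 library of E14 heart was in the fit but, as a group of its own, adds nothing to that estimate. 5hmC was captured by hMe-Seal, in which a glucosyltransferase adds a modified glucose to 5hmC, a biotin is attached to that glucose, and the tagged fragments are pulled down and sequenced. No input library was used here. The labels do not say how many animals gave each library, whether replicates came from separate animals, or which sex they were, so p-values measure only the spread between these libraries.

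As background, 5hmC is made from 5-methylcytosine by the TET dioxygenases, mostly at CpG dinucleotides, and in many tissues it is found along the bodies of expressed genes and at enhancers. The liver at birth still holds blood-forming cells left from fetal haematopoiesis, and its hepatocytes divide. The adult liver consists largely of non-dividing hepatocytes that carry out drug metabolism, urea synthesis, bile acid synthesis and the handling of sugars and fats. In whole tissue, fewer cells of a type and less 5hmC per cell at that type's genes cannot be told apart.

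Values are FPKM, fragments per kilobase of region scaled to the number of mapped reads, for the gene body (from 2000 bp after the start to the gene's end) and, as a second reading, for the 4000 bp promoter window around the start. For single libraries the text gives a relative level, the FPKM of a gene body divided by the median gene-body FPKM of its library, so that 1 is the library's middle gene. Differences (W8 minus P1) are on the scale of log2(FPKM + 0.0753), each library centred on its median, with the standard error (SE) and the adjusted p of limma, called at 0.05. The pseudocount understates changes of low genes. The newborn livers were sequenced as 75 bp paired ends and the adult and E14 livers as 50 bp single ends, so within liver the read format cannot be told apart from age between P1 and W8. The number of reads behind a value, recovered from the steps between FPKM values, was smaller in the newborn libraries. The single-end libraries have 2 step sizes that differ by a factor of 1.03, of which the mean was used, so reads given for W8 and E14 are approximate. By this count the median gene body held 23 and 77 reads in P1 liver, 164 and 149 in W8 liver and 207 in E14 liver. Counting alone then gives an error at the median gene body of 20.9% and 11.4% in the P1 libraries and of 7.81% and 8.19% in the W8 libraries.

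In adult liver 5hmC rose over the bodies of 59.1% to 75.0% of the measured genes in 4 metabolic lists (drug metabolism, amino acid breakdown, fat metabolism and bile acids), against 15.4% of all genes. It fell in 38.1% to 61.5% of those in the fetal, erythroid, blood progenitor and lymphocyte lists, against 15.1% of all. In the fit with all 12 libraries 7 to 12 members of each of the former lists rose and 3 to 11 of each of the latter fell. The cardiac and neuronal comparison lists, which mark no liver cell type, also fell in 29.4% and 25% of cases. With all 12 libraries 1 gene of each of these 2 lists fell. Of 13499 gene bodies tested, 2081 (15.4%) were higher and 2042 (15.1%) lower in W8 than in P1 liver, 4123 in all (30.5%). Among the higher ones, 392 differed by more than 1 on the log2 scale, and among the lower ones 537. Without the centring, on FPKM as deposited, the median gene fell by 0.23 on the log2 scale and the split was 766 higher and 3491 lower, so directions here are relative to the median gene. With the sparse second W8 heart library added to the spread estimate, 648 were higher and 852 lower, and all 1500 were among the 4123. The variance model also mattered: limma's usual trend of variance on the level, which was fitted first, gave 1260 higher and 1631 lower, and the trend on recovered reads used here replaced it after the data had been seen. Leaving out W8 replicate 1 gave 975 higher and 1331 lower, leaving out W8 replicate 2 gave 1003 and 1204, and leaving out P1 replicate 1 gave 1291 and 1421. The median absolute W8 minus P1 difference was 0.36, against 0.21 between the 2 P1 libraries and 0.11 between the 2 W8 libraries. For 9493 gene bodies (70.3%) the 2 W8 values lay wholly above or below the 2 P1 values.

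**Figure D1:**
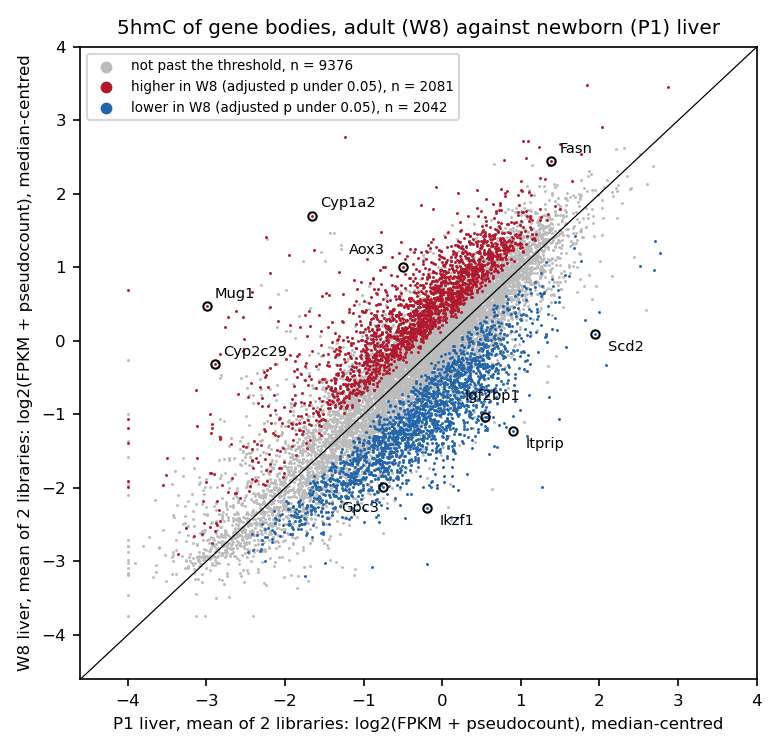
Gene-body 5hmC of 13499 genes in P1 liver (x axis) and W8 liver (y axis), each the mean of 2 libraries on the median-centred log2(FPKM + pseudocount) scale. The line marks equal levels, coloured points passed the test (2081 higher, 2042 lower in W8), and circled genes are described in the text, among them Mug1, Cyp1a2 and Cyp2c29 above the line and Ikzf1, Itprip and Scd2 below it.

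Genes are named here for the largest changes among bodies of at least 10000 bp with at least 30 reads in the group where they are high, so rises can rest on few reads in P1. The largest rise was that of Mug1 (NM_008645), which encodes murinoglobulin, a plasma protease inhibitor made by the liver. Its relative level was 0.0667 and 0.0952 in the P1 libraries, 1.71 in both W8 libraries and 0.482 in E14 liver, a difference of 3.47 ± 0.16 (log2, SE, adjusted p = 4.6e-09). The P1 values rest on 3 and 15 reads and the W8 values on 566 and 524. The largest fall was that of Itprip (NM_001001738, an inositol trisphosphate receptor interacting protein), at 2.76 and 1.91 in P1, 0.534 and 0.390 in W8 and 1.97 in E14, a difference of -2.12 ± 0.19 (adjusted p = 9.2e-07). Beside them stand Cyp1a2 (NM_009993), a cytochrome P450 that clears caffeine and aromatic amines, at 3.36 ± 0.34 (adjusted p = 4.4e-06), and Ikzf1 (NM_001025597), the lymphoid transcription factor Ikaros, at -2.08 ± 0.16 (adjusted p = 2.5e-07). For these 4, picked for their large differences, the W8 and P1 libraries did not overlap, as for 70.3% of all gene bodies.

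The promoters of these 4 genes are shown because 5hmC is carried mostly by CpG, and they differ widely in it. Each line gives the 250 bases before the start from RefSeq (GRCm38.p6, 5′ to 3′ on the gene's strand), with every CpG in capitals.
Mug1, chr6:121838291-121838540, plus strand: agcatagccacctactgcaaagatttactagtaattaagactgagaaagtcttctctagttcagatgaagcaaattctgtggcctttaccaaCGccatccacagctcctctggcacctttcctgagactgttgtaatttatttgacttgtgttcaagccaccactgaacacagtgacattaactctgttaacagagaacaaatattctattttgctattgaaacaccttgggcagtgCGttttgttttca
Cyp1a2, chr9:57683656-57683905, minus strand: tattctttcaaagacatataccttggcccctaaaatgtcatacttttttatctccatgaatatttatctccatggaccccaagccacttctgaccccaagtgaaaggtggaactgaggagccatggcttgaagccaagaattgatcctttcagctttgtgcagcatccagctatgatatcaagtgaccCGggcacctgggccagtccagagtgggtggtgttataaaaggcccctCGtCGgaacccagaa
Ikzf1, chr11:11685675-11685924, plus strand: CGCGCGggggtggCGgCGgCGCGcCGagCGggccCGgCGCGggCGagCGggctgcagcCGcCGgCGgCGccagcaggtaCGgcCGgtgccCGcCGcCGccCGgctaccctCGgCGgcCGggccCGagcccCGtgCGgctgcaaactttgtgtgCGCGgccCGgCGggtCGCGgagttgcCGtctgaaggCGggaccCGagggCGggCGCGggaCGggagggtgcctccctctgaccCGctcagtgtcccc
Itprip, chr19:47919324-47919573, minus strand: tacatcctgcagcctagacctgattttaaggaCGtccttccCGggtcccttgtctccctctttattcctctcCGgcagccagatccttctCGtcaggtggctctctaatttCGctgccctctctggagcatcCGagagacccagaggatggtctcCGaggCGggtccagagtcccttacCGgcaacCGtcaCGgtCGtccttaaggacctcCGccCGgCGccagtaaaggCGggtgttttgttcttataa
The Mug1 stretch holds 2 CpG and that of Cyp1a2 holds 3, while Itprip has 16 and Ikzf1 has 44 (the first of 2 starts listed). Of the 9730 tested genes with a promoter in the RefSeq table, the median was 14 CpG. It was 15 for the 1484 genes that rose and 13 for the 1487 that fell. The hepatocyte function lists described next had a median of 5 CpG (125 genes) and the blood cell lists one of 4.5 (66 genes). Of these, 50.4% and 56.1% had 5 CpG or fewer, against 20.9% of tested genes and 49.5% of all 27025 promoters in the RefSeq table, whose median was 6.

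Genes of drug metabolism rose often. Of 24 measured members of the cytochrome P450 and drug conjugation list, 18 rose and none fell, with a median difference of 1.18 against 0.03 for all genes. In the fit with all 12 libraries 12 rose. The share of list members that rose, 75.0%, was the highest of the 23 lists. Cyp1a2 had relative levels of 0.229 and 0.457 in P1 (1 and 7 reads), 3.91 and 4.36 in W8 and 0.754 in E14. Cyp2c29, a steroid and drug hydroxylase, had 0.135 and 0.0562 in P1, 0.896 and 0.996 in W8 and 0.414 in E14 (2.58 ± 0.19, adjusted p = 2.5e-07). Aox3, an aldehyde oxidase, is better covered in newborns, with 70 reads in the shallower P1 library. It stood at 0.883 and 0.770 in P1, 2.61 and 2.42 in W8 and 0.638 in E14 (1.50 ± 0.10, adjusted p = 9.4e-08).

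Further P450 and detoxification genes were among the 12 largest rises over long gene bodies. Cyp4f14, a fatty acid hydroxylase, rose by 3.12 ± 0.37, and Cyp2j5, an arachidonic acid epoxygenase, by 2.64 ± 0.28. Ces1d, a carboxylesterase, rose from 0.326 and 0.403 to 1.83 and 1.94 (2.14 ± 0.27). Akr1c6, a steroid dehydrogenase, rose by 2.95 ± 0.28, Cyp2c50 by 2.55 ± 0.38, Cyp2c54 by 2.40 ± 0.23 and Cyp3a11 by 2.15 ± 0.31. The Cyp2c, Cyp3a, Cyp4f, Akr1c and Mug genes belong to families of near-identical copies, among which 50 bp single reads and 75 bp read pairs can be placed differently, so their single values are uncertain. In the P1 libraries the 12 genes of this group, Ddx3y included, held between 1 and 39 reads each.

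Amino acid breakdown and the urea cycle moved the same way. In that list 22 of 33 measured genes rose and 1 fell, with a median of 0.75 (12 rose in the 12-library fit). Cps1, carbamoyl phosphate synthetase, the entry step of the urea cycle, had 0.975 and 0.910 in P1, 2.05 and 2.24 in W8 and 0.585 in E14 (1.11 ± 0.11, adjusted p = 3.6e-06). Tdo2, tryptophan dioxygenase, had 0.130 and 0.296 in P1 and 1.45 and 1.97 in W8 (2.65 ± 0.31, adjusted p = 1.5e-05). Kynu, kynureninase of the same breakdown route, rose by 1.64 ± 0.13, and Hgd, homogentisate dioxygenase of tyrosine breakdown, by 1.14 ± 0.12. The member that fell was Gnmt, glycine N-methyltransferase (-1.53 ± 0.41), whose body is only 1505 bp long and whose call was lost in the 12-library fit and without P1 replicate 1 or W8 replicate 1.

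Genes of fat metabolism rose in 26 of 36 cases, the list median being 0.58. With all 12 libraries 8 rose, on the unscaled values 12 rose and 2 fell, without W8 replicate 1 15 rose, and with the variance trend on the level 17 rose. Me1, malic enzyme, which supplies NADPH for fat synthesis, had 0.650 and 0.641 in P1, 2.03 and 2.00 in W8 and 0.804 in E14 (1.52 ± 0.08, adjusted p = 8.2e-09). Fasn, fatty acid synthase, was already among the high genes of newborn liver at 3.66 and 2.90 and stood at 7.61 and 6.41 in W8 (1.06 ± 0.15). E14 liver gave 1.72 for Fasn, below both ages. Acetyl-CoA carboxylases rose less, Acacb by 0.69 ± 0.07 and Acaca by 0.52 ± 0.07. Fasn and Acacb did not pass in the 12-library fit. Dgat2, a triglyceride-forming acyltransferase, was the member that fell (-0.63 ± 0.15), a call lost in the 12-library fit and without W8 replicate 2. Scd2, a stearoyl-CoA desaturase that is not in the list, fell by 1.85 (SE 0.17), from 4.73 and 4.98 to 1.25 and 1.33, while its hepatic paralogue Scd1 rose by 1.33 ± 0.20, from 2.49 and 1.70 to 5.62 and 5.09.

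Bile acid and sterol genes rose in 13 of 22 cases and none fell (median 0.75, 7 in the 12-library fit). Cyp7b1, an oxysterol hydroxylase, had 0.185 and 0.167 in P1, 0.716 and 0.767 in W8 and 0.380 in E14 (1.69 ± 0.12, adjusted p = 1.9e-07). Abcb11, the bile salt export pump, rose by 1.25 ± 0.11, Slco1b2, an uptake transporter for organic anions, by 1.47 ± 0.17, and Abcc2, an exporter of conjugates into bile, by 0.81 ± 0.10, which did not pass in the 12-library fit. Cyp7a1, which starts the classical route from cholesterol to bile acids, did not pass the test, at 2.83 and 1.80 in P1 and 2.40 and 2.84 in W8 (0.19 ± 0.35, adjusted p = 0.73). The W8 and P1 values of Cyp7a1 overlap.

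Of the 22 glucose and glycogen genes 12 rose (median 0.42), a count that fell to 2 in the 12-library fit and to 3 on the unscaled values, where 1 was lower. Without W8 replicate 1 or W8 replicate 2 it was 4, and without P1 replicate 1 or P1 replicate 2 it was 6 and 8. With the variance trend on the level it was 5. Gckr, a regulator of liver sugar metabolism, had 0.428 and 0.689 in P1, 1.38 and 1.44 in W8 and 0.666 in E14 (1.25 ± 0.22, adjusted p = 0.00065). Pyruvate carboxylase (Pcx), which feeds glucose synthesis, rose by 0.59 ± 0.09, and the glucose transporter Slc2a2 by 0.72 ± 0.16. Neither Pcx nor Slc2a2 passed in the 12-library fit, and Slc2a2 also missed it on the unscaled values and without W8 replicate 2.

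Plasma protein genes were mixed. Of 29 measured, 10 rose and 2 fell (median 0.38), 2 rose in the 12-library fit, and on the unscaled values 6 rose and 4 fell. Without W8 replicate 1 or W8 replicate 2, 5 and 6 rose and 1 fell. C9, a terminal complement component, rose from 0.253 and 0.500 to 1.30 and 1.37 (1.68 ± 0.21). Apob, the structural protein of very low density lipoprotein, rose by 0.87 ± 0.13 and Plg, plasminogen, by 0.66 ± 0.13, neither of which passed in the 12-library fit. Alb, albumin, the main plasma protein at both ages, fell, with 1.18 and 1.50 in P1, 0.362 and 0.415 in W8 and 1.45 in E14 (-1.57 ± 0.35, adjusted p = 0.0032). The W8 value of Alb rests on 34 and 36 reads, and it did not pass in the 12-library fit. Ttr, the thyroid hormone carrier transthyretin, was the other that fell, from 2.29 and 1.92 in P1, being 2.08-fold lower in W8 by mean relative level (adjusted p = 0.029), a call lost in the 12-library fit and without any 1 of the 4 liver libraries. Afp, alpha-fetoprotein, whose transcript falls after birth, had 1.53 and 1.71 in P1, 1.48 and 1.53 in W8 and 1.41 in E14 (-0.11 ± 0.23, adjusted p = 0.76), so no difference was detectable over its body.

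Among hepatocyte transcription factors 14 of 29 rose and 1 fell (median 0.58). On the unscaled values 10 rose and 5 fell, and in the 12-library fit 8 rose. Onecut2, a factor of hepatocyte development, had 0.976 and 0.846 in P1, 2.12 and 2.24 in W8 and 0.979 in E14 (1.18 ± 0.11, adjusted p = 2.4e-06). Zhx2, a repressor of fetal liver genes, rose by 0.76 ± 0.09, and Nr1h4, the bile acid receptor FXR, by 0.83 ± 0.11. Nr1i3, the drug-sensing receptor CAR, rose from 1.83 and 1.50 to 5.36 and 5.19 (1.60 ± 0.25). The member that fell was Hlx (-1.67 ± 0.48), a homeobox gene of the liver mesenchyme, a call lost in the 12-library fit and without P1 replicate 1, W8 replicate 1 or W8 replicate 2. Hnf4a, a master regulator of hepatocytes, had 1.93 and 1.77 in P1 and 2.76 and 2.61 in W8 and missed the threshold (0.50 ± 0.19, adjusted p = 0.063).

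Growth signalling genes went both ways. Of 15 measured in the growth hormone and insulin-like growth factor list, 7 rose and 2 fell (median 0.37). Ghr, the growth hormone receptor, had 0.721 and 0.727 in P1, 1.56 and 1.70 in W8 and 0.654 in E14 (1.08 ± 0.06, adjusted p = 3.0e-08). Prlr, the prolactin receptor, rose by 1.30 ± 0.10 and Egfr, the epidermal growth factor receptor, by 1.22 ± 0.07, from 1.07 and 1.09 to 2.66 and 2.60. Igf1, the hormone that the adult liver secretes in response to growth hormone, rose by 1.56 ± 0.15, from 0.625 and 0.705 to 2.12 and 2.13. The receptors for insulin-like growth factors went the other way. Igf1r had 1.87 and 1.62 in P1, 0.717 and 0.663 in W8 and 1.75 in E14 (-1.23 ± 0.06, adjusted p = 8.2e-09), and Igf2r fell by 0.38 (SE 0.10). The call of Igf2r was lost in the 12-library fit, with the variance trend on the level and without P1 replicate 1 or W8 replicate 1.

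In the circadian clock list 10 of 19 genes rose and none fell (median 0.38). Only 2 rose in the 12-library fit, and on the unscaled values 2 rose and 1 fell. Leaving out W8 replicate 1, W8 replicate 2 or P1 replicate 1 gave 4, 6 and 5, and the variance trend on the level gave 2. Nr1d2, a clock repressor, rose by 1.12 ± 0.18, Npas2, a partner of Bmal1, by 0.43 ± 0.09, and the output factor Hlf by 0.51 ± 0.13. Npas2 and Hlf passed neither on the unscaled values, nor in the 12-library fit, nor with the trend on the level, and Hlf was also lost under quantile normalization and without P1 replicate 1 or W8 replicate 1.

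**Figure D2:**
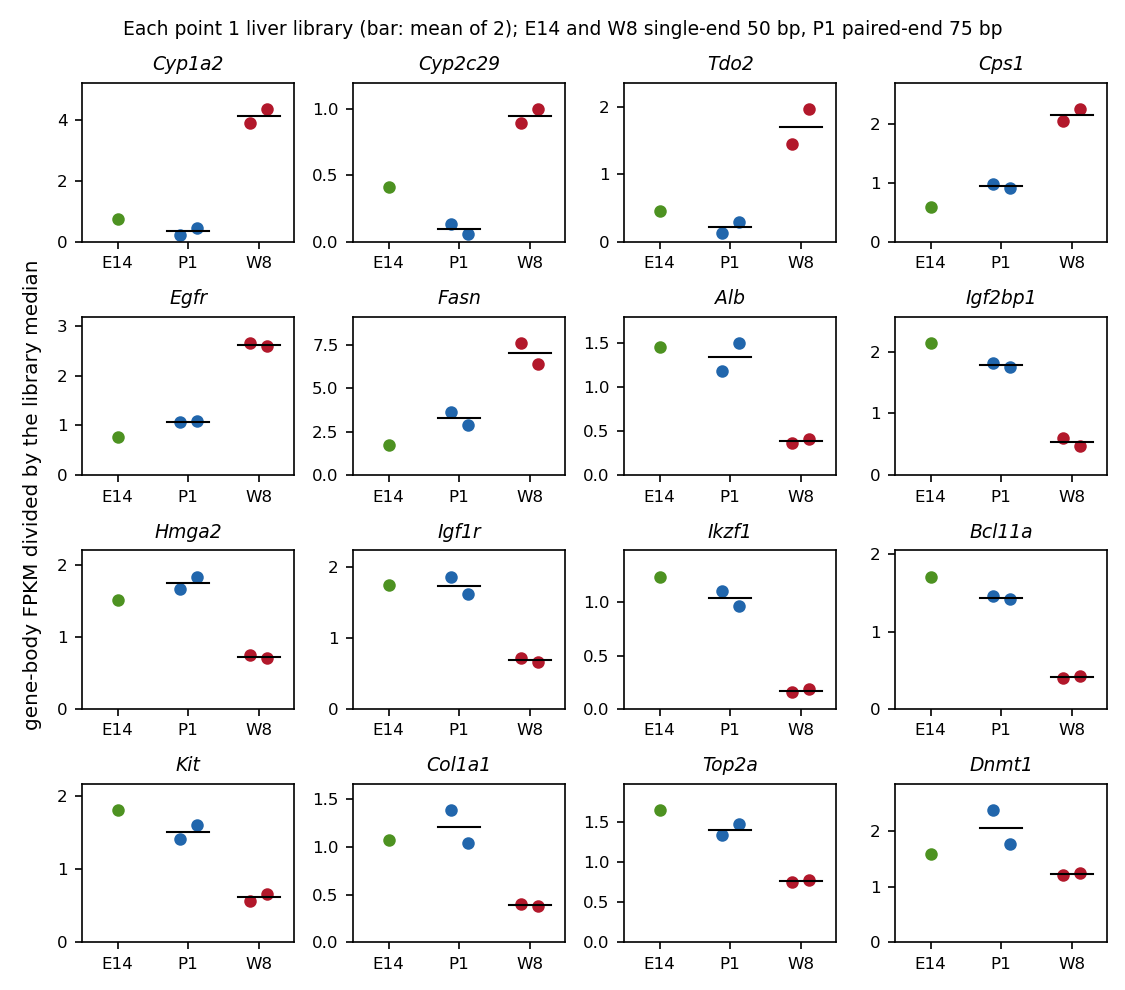
Gene-body FPKM divided by the library median (y axis, linear, from 0) in each liver library for 16 genes described in the text: E14 (1 library), P1 (2) and W8 (2), with bars at the mean of 2. The W8 points lie above both P1 points for the first 6 genes (Cyp1a2 to Fasn) and below both for the other 10 (Alb to Dnmt1), and the E14 point, read in the W8 format, lies on the P1 side of the W8 points in all 16.

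Genes of the fetal liver and of early growth fell. Of 26 measured fetal and oncofetal genes, 16 fell and 1 rose (median -0.72), 11 fell in the 12-library fit and 18 on the unscaled values. Igf2bp1, an RNA-binding protein of embryonic tissues, had 1.82 and 1.76 in P1, 0.609 and 0.476 in W8 and 2.14 in E14 (-1.58 ± 0.13, adjusted p = 6.6e-07). Hmga2, a chromatin protein of growing tissues, had 1.67 and 1.84 in P1 and 0.745 and 0.703 in W8 (-1.18 ± 0.08). Gpc3, an X-linked heparan sulfate proteoglycan of fetal liver, fell from 0.703 and 0.656 to 0.210 and 0.250 (-1.24 ± 0.09, adjusted p = 1.5e-07), and Trim71, a target of the let-7 microRNAs, by 1.13 (SE 0.12). Lin28b, which blocks let-7 maturation, fell by 0.95 (SE 0.15), from 0.495 and 0.494 to 0.179 and 0.232. The member that rose was Spint2, a protease inhibitor (0.60 ± 0.16), a call lost unscaled, in the 12-library fit and without P1 replicate 1 or W8 replicate 1.

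The list holds imprinted genes, which were not tested as a set and are named with their values known. Dlk1, a growth regulator made by fetal hepatoblasts, fell by 1.86 (SE 0.26), from 2.16 and 1.89 to 0.499 and 0.483, and its neighbour Meg3, a non-coding RNA of the other parental allele, fell by 1.61 (SE 0.18), from 1.88 and 1.76 to 0.620 and 0.461. Peg3 fell by 1.09 (SE 0.26), a call lost in the 12-library fit and without P1 replicate 1 or W8 replicate 2, Plagl1 by 1.08 (SE 0.16) and Grb10 by 0.64 (SE 0.09). Peg10 (-1.08 ± 0.44) and Mest (-0.56 ± 0.32) did not pass, nor did Igf2, which was positive (0.89 ± 0.50, adjusted p = 0.19). H19, whose body after the first 2000 bp is only 615 bp long, held between 1 and 3 reads in each P1 and W8 library (-0.77 ± 0.84, adjusted p = 0.53), so no difference was detectable there.

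Many genes of blood formation fell. Among 28 measured erythroid genes 13 fell and 2 rose (median -0.66), with 5 lower in the 12-library fit, 18 on the unscaled values, and 7 and 8 without W8 replicate 1 and W8 replicate 2. Bcl11a, a repressor of fetal globin, had 1.46 and 1.42 in P1, 0.398 and 0.421 in W8 and 1.71 in E14 (-1.61 ± 0.10, adjusted p = 4.2e-08). Ank1, erythrocyte ankyrin, had 1.08 and 0.997 in P1, 0.390 and 0.411 in W8 and 1.81 in E14, the highest of the 5 libraries (-1.19 ± 0.08). Kit, the stem cell factor receptor, fell by 1.18 (SE 0.11). Gata1, the master regulator of red cells, fell by 0.87 (SE 0.30, adjusted p = 0.040), a call lost in the 12-library fit, under quantile normalization and without any 1 of the 4 liver libraries. The 2 that rose were Sox6 (0.53 ± 0.05) and Epb4.1 (0.37 ± 0.08). Epb4.1 was lost unscaled, in the 12-library fit, with the variance trend on the level and without W8 replicate 2.

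Of 20 blood progenitor and megakaryocyte genes, 11 fell and 1 rose (median -0.88), and 9 fell in the 12-library fit. Ikzf1 had 1.11 and 0.963 in P1, 0.157 and 0.185 in W8 and 1.24 in E14. Runx1, needed for blood stem cells to arise, had 1.34 and 1.23 in P1, 0.521 and 0.485 in W8 and 1.46 in E14 (-1.21 ± 0.07, adjusted p = 4.2e-08). Fli1, a factor of megakaryocytes and endothelium, fell by 1.33 (SE 0.09), and Erg, shared with endothelium, by 0.90 (SE 0.07). Myb, a factor of dividing progenitors, fell by 1.65 (SE 0.21), from 1.43 and 1.26 to 0.374 and 0.352. Etv6 was the member that rose (0.23 ± 0.06), but on the unscaled values its difference was -0.02. That call was also lost under quantile normalization, in the 12-library fit, with the variance trend on the level and without P1 replicate 2 or W8 replicate 1.

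Lymphocyte markers fell in 8 of 21 cases, with none higher (median -0.64), 3 lower in the 12-library fit and 5 without W8 replicate 2. Bcl11b, a T cell factor, had 0.698 and 0.631 in P1 and 0.282 and 0.251 in W8 (-1.06 ± 0.10). Ebf1, a B cell factor, fell by 0.56 (SE 0.06), Ikzf3 by 0.75 (SE 0.12) and Ptprc, the pan-leukocyte antigen CD45, by 0.78 (SE 0.14). The call of Ebf1 was lost in the 12-library fit. For macrophages and Kupffer cells the count was 3 lower and none higher of 21 (median -0.22). These were Irf8, a myeloid factor (-0.82 ± 0.16), Timd4 (-1.23 ± 0.29) and Cd5l (-1.27 ± 0.37), the latter pair being products of resident macrophages. In the 12-library fit 1 of the 3 passed, and Cd5l was also lost without P1 replicate 1 or W8 replicate 2. The share of macrophage genes that fell, 14.3%, is near the 15.1% of all genes.

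Genes of endothelium and connective tissue fell in 36.0% and 34.6% of cases, against 15.1% of all genes, but the cardiac and neuronal comparison lists, which mark no liver cell type, also fell in 29.4% and 25%. In the endothelial and sinusoidal list 9 of 25 fell and none rose (median -0.37). Kdr, the main receptor for vascular endothelial growth factor, fell from 0.940 and 0.784 to 0.372 and 0.443 (-0.92 ± 0.15), Flt1, a related receptor, by 0.79 (SE 0.08) and Vwf, von Willebrand factor, by 0.76 (SE 0.09). Stab2, a scavenger receptor of liver sinusoids, did not pass the test, with 0.930 and 0.940 in P1 and 0.960 and 0.953 in W8 (0.03 ± 0.09, adjusted p = 0.82). In the stellate cell and fibroblast list 9 of 26 fell and none rose (median -0.54). Col1a1, a collagen of fibrous tissue, had 1.38 and 1.04 in P1 and 0.404 and 0.385 in W8 (-1.40 ± 0.23). Col5a1 fell by 1.17 (SE 0.08), Pdgfrb, a receptor of stellate cells, by 1.29 (SE 0.13) and Reln, a matrix glycoprotein, by 0.52 (SE 0.07). Both lists had 5 lower genes in the 12-library fit, and on the unscaled values 15 and 14. Without P1 replicate 1 or W8 replicate 2 the stellate list had 5, and with the variance trend on the level the lists had 7 and 6.

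Cell cycle genes fell in 13 of 33 cases with none higher (median -0.47), but only 1 did so in the 12-library fit and 22 did on the unscaled values. Without P1 replicate 2 it was 4, without W8 replicate 1 it was 6 and without W8 replicate 2 it was 5. The variance trend on the level gave 8. Cdc6, a licensing factor of DNA replication, had 2.83 and 2.64 in P1, 1.33 and 1.54 in W8 and 2.74 in E14 (-0.90 ± 0.16, adjusted p = 7.4e-04). Top2a, topoisomerase of dividing cells, had 1.33 and 1.47 in P1, 0.749 and 0.776 in W8 and 1.64 in E14 (-0.81 ± 0.20, adjusted p = 0.0060), and was lost in the 12-library fit, with the trend on the level and without P1 replicate 2. E2f2 fell by 0.55 (SE 0.13) and Ccnd3, a cyclin, by 0.38 (SE 0.09), calls that were lost in the 12-library fit and without W8 replicate 1, that of Ccnd3 also with the trend on the level and without P1 replicate 2.

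The DNA methylation machinery showed no common direction, with 2 of 17 higher and 3 lower (median 0.09), none of them past the threshold in the 12-library fit. Dnmt1, the maintenance methyltransferase, had 2.37 and 1.76 in P1, 1.21 and 1.25 in W8 and 1.59 in E14 (-0.70 ± 0.17, adjusted p = 0.0068), and was lost in the 12-library fit, with the variance trend on the level and when P1 replicate 1 was left out. Its partner Uhrf1 had 2.14 and 1.98 in P1 and 1.16 in both W8 libraries (-0.79 ± 0.16). Dnmt3l fell by 0.82 (SE 0.24) and Mbd1, a methyl-CpG binding protein, rose by 0.80 (SE 0.25), both calls being lost under quantile normalization, in the 12-library fit and without P1 replicate 1, W8 replicate 1 or W8 replicate 2, and that of Mbd1 also unscaled and with the trend on the level. Uhrf2 was the other that rose (0.40 ± 0.13), a call lost under the same settings as that of Mbd1. Of the TET enzymes that make 5hmC, Tet2 had 1.03 and 0.857 in P1 and 1.20 and 1.17 in W8 (0.31 ± 0.11, adjusted p = 0.052), and Tet1 and Tet3 were not analysed here.

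Other genes among the 12 largest falls over long bodies were of several kinds. Myo1g, a haematopoietic myosin, fell from 1.83 and 1.74 to 0.507 and 0.420 (-1.76 ± 0.27), Parvg, the blood cell parvin, from 1.26 and 1.03 to 0.243 and 0.215 (-1.93 ± 0.28), Cyth4 by 1.70 (SE 0.30) and Slamf7, a lymphocyte surface receptor, by 1.71 (SE 0.35). Mbp had 1.61 and 1.65 in P1, 0.495 and 0.377 in W8 and 1.77 in E14 (-1.71 ± 0.11, adjusted p = 5.6e-08). Its locus encodes myelin basic protein and also the golli transcripts, which blood cells make. Cdc42ep3, a Cdc42 effector, fell by 1.78 (SE 0.20), Clrn3 by 1.86 (SE 0.31) and 1190002H23Rik by 1.92 (SE 0.30). The call of Cyth4 was lost in the 12-library fit.

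Of 17 markers of bile duct cells 4 were higher (23.5%, against 15.4% of all genes) and 3 lower (17.6%, against 15.1%), with a median of 0.10, so the list is near the background. Jag1, the Notch ligand, rose by 0.60 ± 0.14, Krt8, a keratin shared with hepatocytes, by 1.37 ± 0.36 and Pkhd1, fibrocystin, by 0.43 ± 0.09, while Muc1, with a body of 2325 bp, fell by 1.74 (SE 0.49). Sox9 was the highest of the list, at 0.305 and 0.610 in P1 and 2.64 and 2.14 in W8 (2.24 ± 0.74), over a body of 3537 bp. In the 12-library fit 2 rose and none fell, on the unscaled values 2 rose and 6 fell, and with the larger pseudocount or the 4 livers alone 1 fell. Without W8 replicate 1 only 1 rose and none fell, and without P1 replicate 1 or W8 replicate 2 2 rose and 1 fell. The variance trend on the level gave 1 higher and 2 lower. Krt8 was lost there, in the 12-library fit and without P1 replicate 1 or W8 replicate 1, and Pkhd1 there, unscaled and without W8 replicate 2. Jag1 was lost unscaled and without W8 replicate 1, and Muc1 in the 12-library fit and without W8 replicate 1. Sox9 was lost in the 12-library fit, with the smaller pseudocount, with the trend on the level and without any 1 of the 4 liver libraries. Among 16 Hox genes, which set position in the embryo, 2 fell (Hoxa3 by 0.81, SE 0.18, and Hoxb3 by 1.29, SE 0.29), a share of 12.5% that is below that of all genes. Neither passed in the 12-library fit or without W8 replicate 2, nor Hoxb3 without P1 replicate 2. With the variance trend on the level 5 Hox genes were lower.

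Cardiac, neuronal and ribosomal protein genes, which mark no liver cell type, were measured for comparison. Of 17 cardiac sarcomere genes 2 rose and 5 fell (29.4%, against 15.1% of all genes, median -0.37), the latter including Actn2 (-0.85 ± 0.12), Myl2 (-1.19 ± 0.27), Nebl (-0.46 ± 0.08) and Ttn (-0.37 ± 0.07). Of 20 neuronal genes 1 rose (Syt1, 0.55 ± 0.06) and 5 fell (25%, median -0.13), including Camk2a (-1.08 ± 0.13), Elavl4 (-0.59 ± 0.13) and Gria1 (-0.51 ± 0.09). Of 7 ribosomal protein genes none passed in either direction with limma (median -0.24), and none had an unadjusted p under 0.05. In the 12-library fit 1 cardiac and 1 neuronal gene fell, and on the unscaled values 8 and 11. Without P1 replicate 1, 3 cardiac genes fell, and 3 and 2 neuronal genes without W8 replicate 1 and W8 replicate 2. Ttn, Gria1 and Elavl4 passed neither in the 12-library fit nor with the larger pseudocount, which left 2 neuronal genes lower, Ttn was also lost with the variance trend on the level and Elavl4 without W8 replicate 2. Nebl and Myl2 did not pass in the 12-library fit, nor Myl2 without P1 replicate 1.

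**Figure D3:**
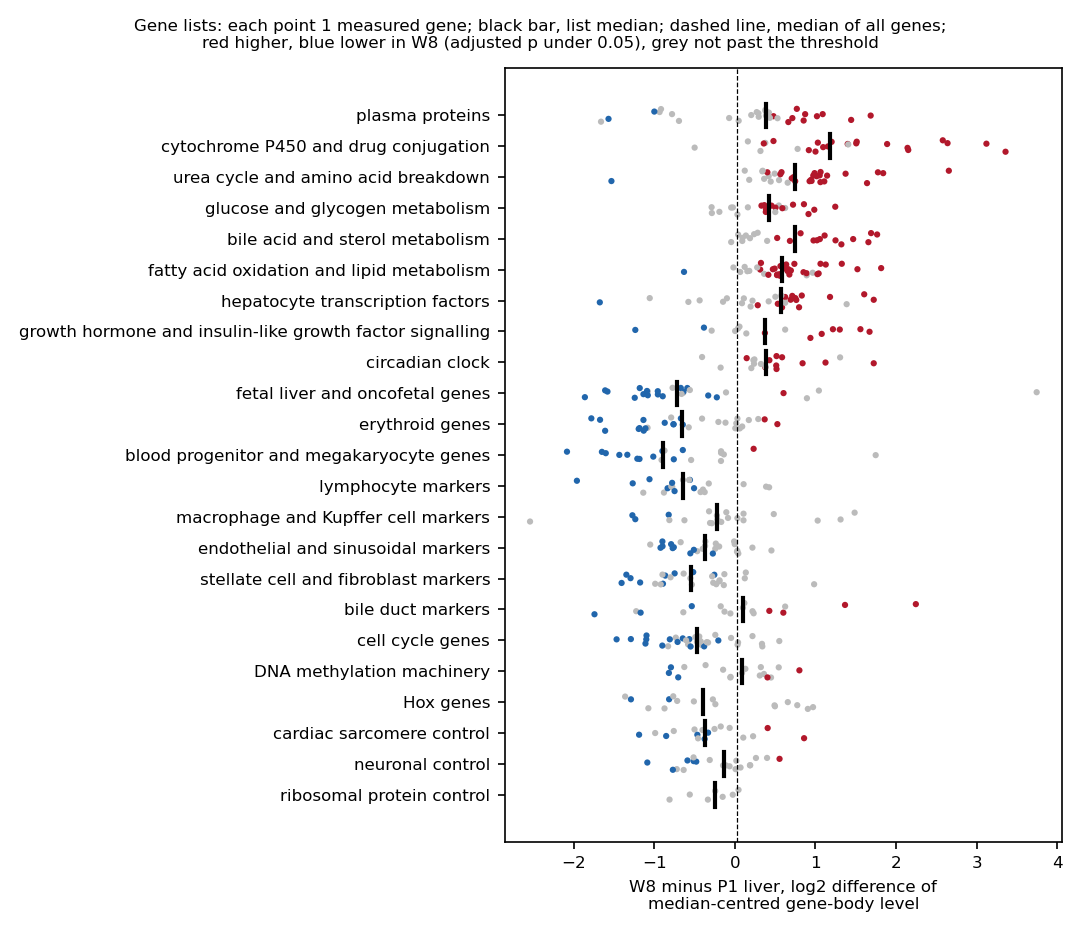
W8 minus P1 log2 difference of gene-body 5hmC (x axis) for every measured member of 23 gene lists, with the list median as a black bar and the median of all genes, 0.03, as a dashed line. The 9 lists of hepatocyte function, growth hormone and clock genes have medians between 0.37 and 1.18, and the fetal, blood, endothelial and stellate lists have medians between -0.22 and -0.88.

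The list medians in single libraries show the same order. The median relative level of the P450 list was 0.851 and 0.911 in P1, 2.10 and 1.97 in W8 and 0.721 in E14. For the urea cycle and amino acid list it was 1.26 and 1.50 in P1, 2.61 and 2.56 in W8 and 0.993 in E14. The plasma protein list overlapped between the ages, with 1.77 and 1.92 in P1 and 2.07 and 1.86 in W8. Blood progenitor genes had 1.35 and 1.21 in P1, 0.528 and 0.495 in W8 and 1.29 in E14, and stellate and fibroblast genes 0.759 and 0.707 in P1, 0.396 and 0.389 in W8 and 0.947 in E14. No list of another cell type was at 0 in adult liver. The summed FPKM of the lymphocyte list was 15.8 and 14.8 in P1 and 8.18 and 7.95 in W8, and that of the erythroid list 40.6 and 39.2 in P1 and 24.2 and 24.7 in W8. These sums are not centred, and over all genes they were 15280 and 14090 in P1 and 12740 and 12570 in W8. The neuronal comparison list also fell, from 6.61 and 6.35 to 3.81 and 4.01, and the cardiac list from 19.65 and 17.09 to 12.81 and 11.38. How much of the fall at these genes goes with cell numbers was not tested.

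The heart gives a comparison in which the read format changed with age in the same way, from 75 bp pairs at P1 to 50 bp single reads at W8. There the W8 group is 1 library, assumed to vary like the others. The age difference was more positive in liver than in heart for 944 genes (6.99%) and more negative for 1243 (9.21%). With the usual variance trend on the level, fitted first, these counts were only 173 and 320. With all 12 libraries they were 250 and 366, without W8 liver replicate 1 419 and 817, without W8 liver replicate 2 432 and 745, and without P1 heart replicate 1 1454 and 1672. The median heart difference was 0.01 over the genes that rose in liver and 0.04 over those that fell, and across genes the liver and heart differences had a correlation of -0.02 (Pearson, 13499 genes, which are not independent replicates).

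By list, the P450 genes were more positive in liver in 11 of 24 cases, the urea cycle and amino acid genes in 12 of 33, the fat metabolism genes in 15 of 36 and the bile acid genes in 9 of 22, with none more negative in any of these. With the variance trend on the level the 4 counts were 4, 3, 3 and 4, and with all 12 libraries 4, 3, 5 and 5. Fetal genes were more negative in liver in 13 of 26 cases and more positive in 1, and blood progenitor genes were more negative in 8 of 20. Over all genes 6.99% were more positive and 9.21% more negative. The comparison lists that mark no liver cell type were also more negative, in 6 of 20 neuronal and 4 of 17 cardiac genes. The trend on the level left 8 fetal, 6 blood progenitor, 0 neuronal and 0 cardiac genes. Only 1 of the 33 cell cycle genes differed in this way, and their median heart difference was -0.11. Single genes were named for their liver difference, which the difference between tissues contains, so their values are a description. Me1 rose by 1.52 in liver, against 0.02 ± 0.09 in heart, a difference of 1.50 ± 0.12. Igf1r fell by 1.23 in liver, against -0.14 ± 0.08 in heart, a difference of -1.09 ± 0.10. For Cps1 the heart value was 0.58 ± 0.14, and the difference between the tissues missed the threshold (0.53 ± 0.18, adjusted p = 0.052).

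**Figure D4:**
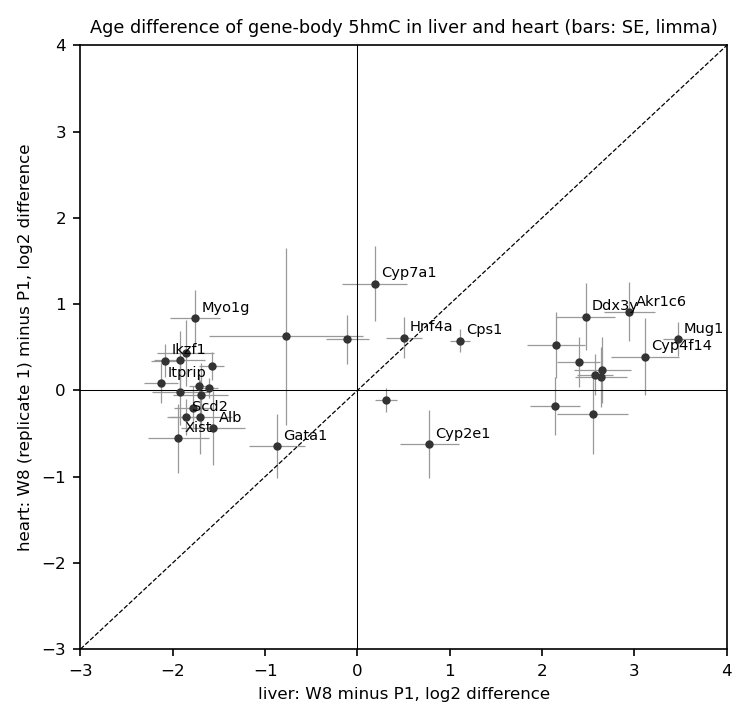
W8 minus P1 log2 difference of gene-body 5hmC in liver (x axis) and heart (y axis) for 23 of the 24 genes with the largest changes and 11 reference genes of the text, with standard errors from limma (W8 heart is 1 library). The genes with the largest changes span -2.12 to 3.47 on the liver axis, away from the dashed line of equal change. On the heart axis they span -0.56 (Xist) to 0.91 (Akr1c6). The heart value of Akr1c6 is unresolved, with FPKM of 0 in P1 heart and 0.0388 in W8 heart, below the pseudocount.

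The E14 liver library has the read format of W8 liver and so gives the direction of change without that difference, though it is a single library at another age and shares the W8 libraries. Of the 4123 genes that passed between W8 and P1, 3891 (94.4%) had a W8 minus E14 difference of the same sign. The share was 1891 of 2081 for the higher and 2000 of 2042 for the lower genes, but over all genes tested, called or not, 76.8% had the same sign, both differences containing the W8 libraries. In the P450 list all 24 measured genes were higher in W8 than in E14 (median 1.25), as were all 22 bile acid genes (median 1.02) and all 36 fat metabolism genes (median 0.93). In the stellate list 1 of 26 was higher (median -1.10). The comparison lists that mark no liver cell type were low as well. There 0 of 20 neuronal genes (median -1.32), 2 of 17 cardiac genes (median -0.65) and 3 of 7 ribosomal protein genes (median -0.08) were higher. Over all genes tested 47.9% were higher in W8 than in E14. Sox6, Pkhd1 and Syt1 are examples of genes that rose after birth without standing clearly above E14. Sox6 had 0.855 in E14, level with 0.863 and 0.862 in W8. Pkhd1 had 0.449 in E14, above 0.265 and 0.307 in W8, and Syt1 had 0.616 in E14, above 0.498 and 0.49 in W8.

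In the promoter windows, with a median of 4 and 13 reads in the P1 libraries and 23.9 and 22.1 in the W8 libraries, none of 13509 windows passed in either direction (0% higher and 0% lower, limma). An unadjusted p under 0.05 was reached by 1223. Quantile normalization gave 4 higher and 5 lower, and leaving out P1 replicate 2 gave 121 higher, so single windows were not resolved at this depth. The sign could still be compared. Of 2078 genes that rose over the body and had a tested window, 66.3% had a positive promoter difference, and of 2041 that fell, 34.6%, against 55.9% of all genes. Across 13476 genes the body and promoter differences had a correlation of 0.29, with both regions read from the same libraries.

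None of the windows of single genes passed, those of the 4 genes shown by sequence included. The Mug1 window held 0 and 2 reads in P1 and 27 and 26 in W8 (3.31 ± 0.68, adjusted p = 0.32), and the Cyp1a2 window 9 and 10 reads in P1 and 109 in both W8 libraries, or 2.36 and 0.702 FPKM against 3.07 and 3.36 FPKM (1.75 ± 0.45, adjusted p = 0.38). The Ikzf1 window, with its CpG-dense start, held 5 and 13 reads in P1 and 9 and 2 in W8 (-2.02 ± 0.94, adjusted p = 0.55), and that of Itprip 4 and 7 in P1 and 8 and 12 in W8 (-0.65 ± 0.51, adjusted p = 0.73). These 4 differences have the sign of the body, but among the 12 largest rises the windows of Akr1c6 (-1.19 ± 0.63), Ces1d (-0.69 ± 0.51), Cyp2j5 (-0.30 ± 0.96) and Tdo2 (-0.13 ± 0.72) had the opposite sign, and among the 12 largest falls that of Xist (0.09 ± 0.65).

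Over whole lists, several groups of metabolic genes had opposite signs in body and promoter. In the fat metabolism list 25 of 36 promoter differences were negative, against 44.1% of all genes, and 23 genes were positive over the body and negative at the promoter (median promoter difference -0.38). The mean promoter FPKM of that list, relative to the library's mean promoter, was 1.43 and 1.44 in P1 and 1.17 and 1.16 in W8, with 1.36 in E14. Urea cycle and amino acid genes had 1.46 and 1.47 in P1, 1.20 and 1.25 in W8 and 1.28 in E14, and 20 of 33 of their promoter differences were negative. Bile acid genes had 1.37 and 1.33 in P1, 1.13 and 1.19 in W8 and 1.23 in E14. Plasma protein promoters went from 1.58 and 1.36 to 0.978 and 1.05. In each of these 4 lists the 2 W8 values lay below the 2 P1 values, which was common and not particular to metabolic genes. It held also for the glucose, growth hormone, fetal, erythroid, blood progenitor, lymphocyte, macrophage, endothelial, stellate, cell cycle, Hox and neuronal lists. Lymphocyte genes had 0.693 and 0.727 in P1 and 0.465 and 0.446 in W8. Neuronal genes had 0.31 and 0.27 in P1 and 0.231 and 0.249 in W8. The P450 list did not do this, with 1.09 and 0.890 in P1, 1.32 in both W8 libraries and 0.847 in E14. Nor did the transcription factor, clock, bile duct, DNA methylation, cardiac and ribosomal lists. By sign and median the P450 promoters were near the background. Of their differences 10 of 24 were negative, and the median was 0.16, against 0.10 for all genes. No test was made on these means, since single windows were not resolved.

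**Figure D5:**
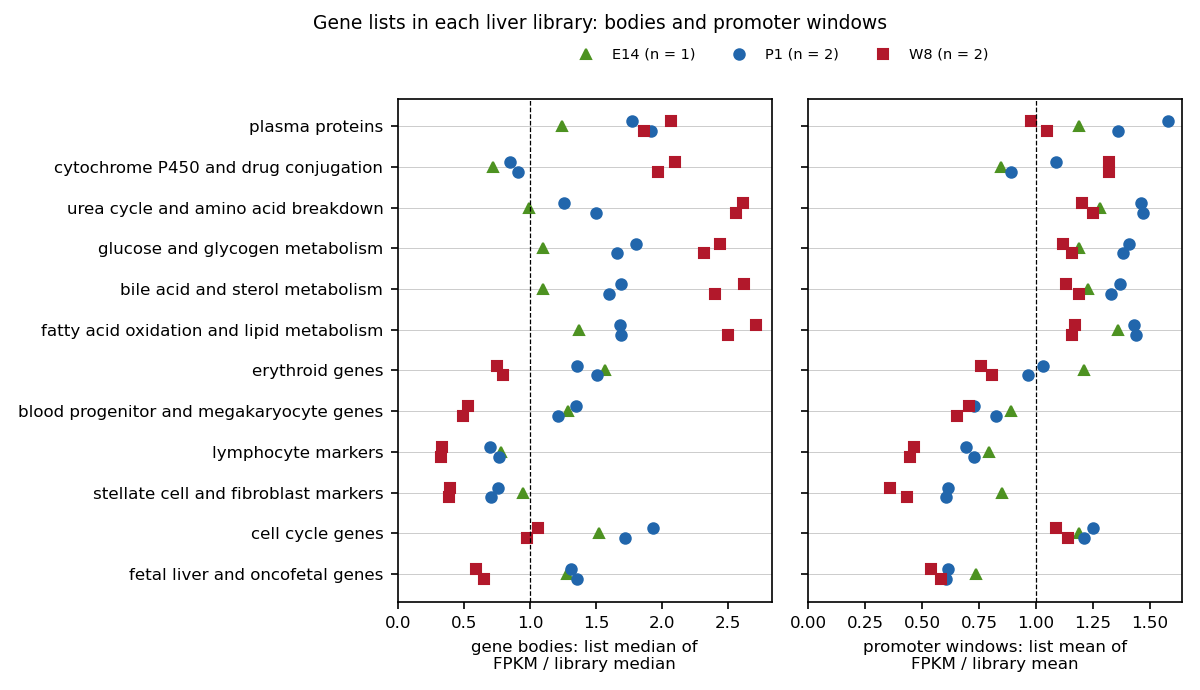
List medians of gene-body FPKM over the library median (left) and list means of promoter-window FPKM over the library mean (right) in each liver library for 12 lists, both from 0 on a linear axis with 1 dashed. In the urea cycle, bile acid and fat metabolism lists the W8 squares lie to the right of the P1 circles for bodies and to the left for promoters, while the P450 list is higher in W8 in both panels.

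Genes of the sex chromosomes also differed between the ages. Ddx3y and Uty on the Y chromosome had relative levels of 0.0452 and 0.0902, and 0.0221 and 0.0461, in the P1 libraries, against 0.677 and 0.773, and 0.310 and 0.360, in W8 liver. Xist, the X inactivation transcript of female cells, had 0.810 and 0.878 in P1, 0.161 and 0.135 in W8 and 0.745 in E14 (-1.94 ± 0.33, adjusted p = 3.8e-04). The labels give no sex, and the sex make-up of the libraries cannot be told apart from age here. This limit holds for autosomal genes as well, where a difference that goes with sex was not tested. E14 liver had 0.164 for Ddx3y and 0.235 for Uty, and W8 heart replicate 1 had 0.178 and 0.135, below W8 liver as well, so the comparisons with E14 and with heart carry a difference at these genes too. Of 371 X-linked genes 32 rose and 22 fell (median -0.03), and the median relative level of X genes was 0.359 and 0.328 in P1 and 0.315 and 0.343 in W8. Of 11950 autosomal genes 1890 rose and 1870 fell.

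Calls were more frequent in long genes, whose values rest on more reads. Under 5 kb, 5.24% of 1375 bodies were higher and 4.66% lower, with a median SE of 0.51. Between 100 and 200 kb, 27.9% of 1173 were higher and 29.4% lower, with a median SE of 0.10. At 200 kb or more, 23.6% of 802 were higher and 33.2% lower. The shares of all genes set beside the lists mix these lengths, and no list share was adjusted for gene length. The median difference stayed between -0.02 and 0.06 in all 7 length classes. A short gene that did not pass, such as Cyp2e1 (0.78 ± 0.32, adjusted p = 0.079, body 9237 bp), a P450 that oxidises ethanol, is therefore less well resolved than a long one.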

How the data were processed

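Per the submitters' processing notes, reads were aligned with Bowtie2 to mm9. The counting tool and all versions: not given in the sources used here. The authors deposited FPKM per gene for the gene body and for a 4000 bp promoter window that ends where the body begins. Of 13581 genes, 23 without coordinates and 9 with a body length of 0 or less were left out. FPKM steps gave whole reads for 100% of low promoter values (tolerance 0.01 reads), from which depth was recovered, approximately for single-end libraries. Differences were tested with limma 3.58.1 in R 4.3.3 on median-centred log2(FPKM + pseudocount) over 11 libraries, without W8 heart replicate 2 (about 5 reads per median body), with 1 mean per group, 4 residual degrees of freedom, a variance trend on the recovered reads, a pseudocount and minimum mean of the median non-zero value over 10 (0.0753 for bodies, 0.0692 for promoters), and Benjamini-Hochberg adjustment over all genes. The trend on reads departs from the planned fit. limma's usual trend on the level was fitted first, and on simulated data with known differences it recovered almost none of them, so the trend was moved to reads after the data had been seen. The change raised the counts of calls, and both sets of counts are given. In the simulation the libraries shared the same mean per gene apart from the set differences, and the spread followed the number of reads. Such data favour a trend on reads, so the simulation cannot decide which trend suits these libraries. Named genes are the 12 largest rises and falls with a body of at least 10000 bp and 30 reads in the higher group, up to 4 members per list by smallest p, and fixed reference genes. Gnmt, Dgat2, Hlx, Ttr, Scd1, Nr1i3, Igf1, Igf2r, Lin28b, Dlk1, Meg3, Peg3, Plagl1, Grb10, Igf2, Mest, Peg10, Spint2, Epb4.1, Myb, Etv6, Stab2, Sox9, Uhrf2 and Uty were named after their values were seen, and a few genes that the rule picks are not reported here. The members and lists were chosen with earlier results of these data known. Promoter sequences come from RefSeq (GRCm38.p6), matched by symbol, and were not joined to mm9 coordinates.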

Additional observations from a re-analysis of the deposited data

Results flagged for a closer look

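Among the genes named for the largest changes and the reference genes, 23 had an age difference in liver that differed from that in heart (limma interaction, adjusted p under 0.05). The values are the liver W8 minus P1 difference less the heart W8 minus P1 difference on the log2 scale, with 1 W8 heart library. All but the reference genes were chosen for a large liver difference, which this value contains, so the count is a description and no test of these genes. Among the drug-metabolising genes it was 2.73 for Cyp4f14, 2.48 for Cyp2j5, 2.39 for Cyp2c29, 2.82 for Cyp2c50, 2.06 for Cyp2c54, 1.63 for Cyp3a11, 2.32 for Ces1d and 2.03 for Akr1c6. It was 2.87 for Mug1, 2.41 for Tdo2 and 1.62 for Ddx3y. Among the genes that fell in liver it was -2.21 for Itprip, -2.43 for Ikzf1, -2.28 for Parvg, -2.60 for Myo1g, -1.65 for Cyth4 and -1.77 for Mbp. Clrn3 had -2.30, 1190002H23Rik -1.89, Cdc42ep3 -1.58 and Scd2 -1.54. Of the reference genes, Bcl11a had -1.64 and Igf2bp1 -1.86. With the variance trend on the level, 9 of the 23 missed the threshold: Cyp4f14, Tdo2, Cyp2c50, Ddx3y, Cyp3a11, Ces1d, 1190002H23Rik, Cdc42ep3 and Cyth4.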

How the results depend on the processing

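The counts of gene bodies higher and lower, 2081 and 2042, became 766 and 3491 without scaling beyond the deposited FPKM, 648 and 852 with all 12 libraries, 1260 and 1631 with the usual variance trend on the level (fitted first and replaced after seeing the data), and 0 and 0 with the promoter window in place of the body. Leaving out 1 library at a time gave 975 to 2663 higher and 1204 to 2516 lower. For promoter windows, 0 in each direction became 4 higher and 5 lower under quantile normalization, 4 higher with a larger pseudocount, 1 higher with the 4 livers alone, and 0 to 121 higher with 1 library left out. The 944 and 1243 genes that differed from heart became 250 and 366 with all 12 libraries, 173 and 320 with the trend on the level, and 419 to 1454 and 745 to 1672 with 1 library left out. The share of called genes with the same sign against E14, 94.4%, was 71.1% unscaled, 96.6% under quantile normalization, 91.9% and 95.1% with a larger and a smaller pseudocount, 97.4% with all 12 libraries, 95.8% with the trend on the level and 91.7% to 96.8% with 1 library left out. The cause of these shifts was not tested. The autosomal restriction was also added after seeing the data. Of 122 named genes past the threshold, Etv6 reversed unscaled (-0.02) and no other reversed under any setting. The threshold was missed by 42 with all 12 libraries, 14 with the trend on the level, 9 unscaled, 6 under quantile normalization, 3 with the larger and 1 with the smaller pseudocount, and 7 to 17 with 1 liver library left out.

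Replicate numbers in P1 and W8 liver share only a number: deviations of same-numbered libraries had a correlation of 0.01 across genes. With a replicate block, 2130 gene bodies were higher and 2052 lower, 876 and 1176 differed from heart, and 93.2% had the same sign against E14.

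Depth limits short genes and promoter windows most: counting error at the median promoter was 50.0% and 27.7% in the P1 libraries.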
